A study of Arabidopsis thaliana with 4 samples.

Results

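The genes described here build the anther and the surface of the pollen grain of Arabidopsis thaliana, the thale cress. They were chosen by locus code, from 45 listed codes for anther cell fate, tapetum regulation, the pollen wall and the pollen coat. A row of the table carried 1 of these codes alone in 43 cases, out of 34288 rows in all. LAP6 (AT1G02050) and TKPR1 (AT4G35420) were joined with neighbouring genes in 1 row each and are given apart. The series sequenced RNA of the wild-type accession Col-0, with 1 library for each of 4 organs, all grown at 22 °C in long days. Roots and leaves (the growth protocol speaks of the aerial part) were taken at 2 weeks of age from MS plates. Flowers and siliques, the seed pods, were taken at 5 weeks from plants in soil. No mutant, transgene or treatment is named in the labels, and floral stage is not given. With 1 library per organ no value has a replicate error, so no test was made and no p-value is given.

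The tapetum is the innermost cell layer of the anther wall. It feeds the developing microspores, makes the precursors of sporopollenin, the tough polymer of the outer pollen wall, and finally breaks down and leaves its lipids and proteins on the grain as the pollen coat. Its formation is set by a receptor and its ligand, and its later work by a cascade of transcription factors that begins with DYT1 and passes through TDF1, AMS, MYB80 and MS1. Each step is known mostly from male-sterile mutants of this species.

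Most of these genes were higher in flowers than in any other organ, by amounts that ran from little over 2-fold to far more. The unit is FPKM, sequenced fragments per kilobase of transcript after scaling for library size, and differences are in log2(FPKM + 1), which understates those of low genes. The 42 members that reached an FPKM of 1 in at least 1 organ were compared, and DYT1, the member below that level, is described by its values. In flowers 36 of the 42 were at least 2-fold higher than in siliques, the organ that shares their age and medium, against 13.5% of the 23477 loci compared across the genome. The count was 37 of 42 against leaves (21.6% of all compared loci) and 38 of 42 against roots (23.8%). A 2-fold lead over each other organ was held by 36 of 42, against 8.04% of all compared loci, and a 16-fold lead by 23 of 42, against 0.831%. The filter was passed only through the flower level by 30 members and only through the root level by ROXY1, so these counts describe the members that passed. At 4-fold the counts were 30 of 42 against siliques (4.94% of all compared loci), 33 against leaves (8.09%) and 35 against roots (12.1%). In the other direction, AT1G75900 was at least 2-fold lower in flowers than in siliques, TPD1 than in leaves (7.79% of all compared loci) and ROXY2 than in roots (16.5%).

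The median difference over the 42 members was 4.68 between flowers and siliques, 4.86 between flowers and leaves and 4.72 between flowers and roots. Over all compared loci these medians were 0.19, 0.38 and 0.05. The members together held 0.721% of the summed FPKM of usable loci in flowers, 0.0673% in siliques, 0.0137% in leaves and 0.0112% in roots. GRP19, ATA20, GRP17 and AT1G66850 alone made up 52.2% of the members' sum in flowers. In bulk organs, fewer anther cells and less RNA per anther cell cannot be told apart, and in the comparisons with roots and leaves the organ cannot be told apart from the age and the medium.

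**Figure D1:**
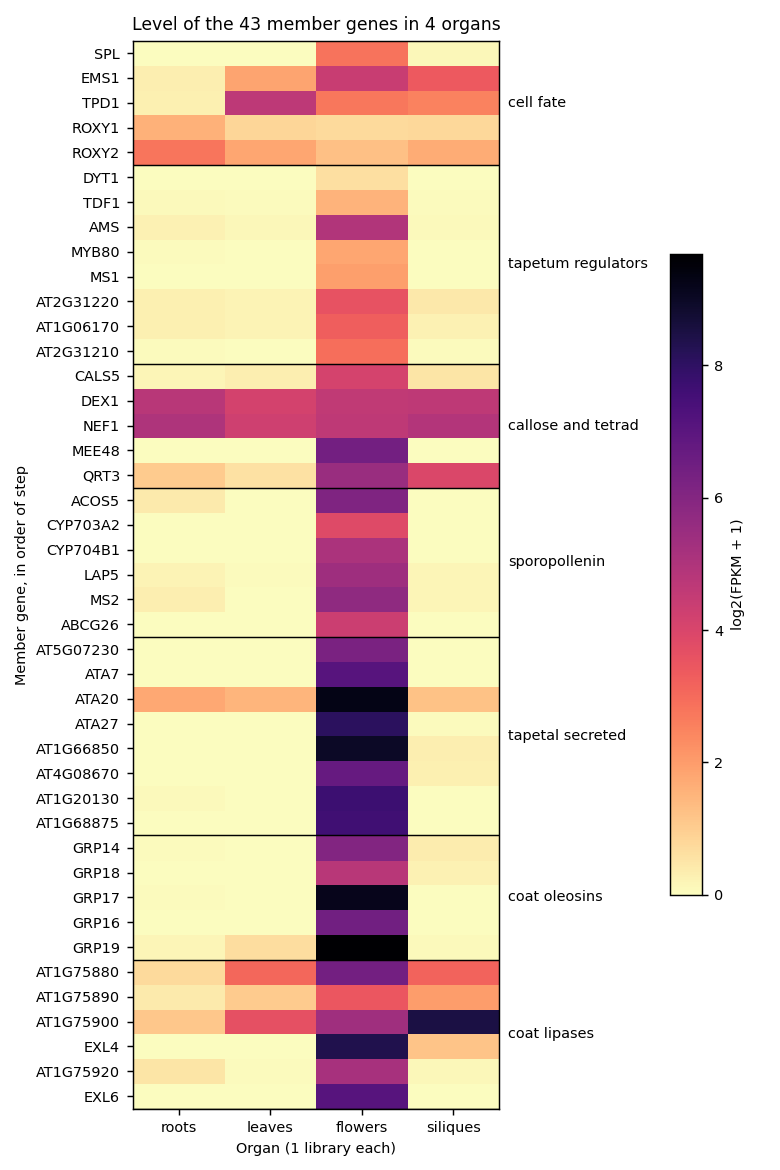
Level of each of the 43 member genes, as log2(FPKM + 1) by colour, in roots, leaves, flowers and siliques (1 library each), with rows ordered by step of anther development. The flower column is darkest among the secreted tapetal and coat genes, while TPD1, both ROXY genes, DEX1, NEF1 and AT1G75900 break the pattern.

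The authors' intervals around these values were wide. In flowers the interval reached down to 0 for 34 of the 43 members, in siliques for 41, and in leaves and roots for all 43. A difference of at least 2-fold and a flower interval clear of the other organ's was therefore found for 7 of 42 members against siliques, where 0.226% of all compared loci met it. It was found for 9 of 42 against leaves (0.562%) and 9 of 42 against roots (1.01%). At 4-fold with clear intervals the counts were again 7, 9 and 9 (0.209%, 0.532% and 0.967%). The 7 members were CALS5, ACOS5, ABCG26, AT4G08670, GRP14, GRP16 and AT1G75920, and EMS1 and QRT3 joined them against leaves and roots. The confidence level of the intervals is not given in the sources used here.

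Very low values in this table rest on few reads. Taking loci whose upper interval end is 3 times the value as loci with 1 fragment, an FPKM of 1 corresponds to about 151 to 164 fragments per kilobase, depending on the organ. A single fragment on a transcript of 1 kb would then be listed at about 0.00612 to 0.00662 FPKM. Of the 36 members with a 2-fold flower lead over each other organ, 34 were under 1 FPKM in roots, 32 in leaves and 30 in siliques. A value of 0 was listed for 13 of them in roots, 14 in leaves and 7 in siliques. Against a listed 0 no ratio of FPKM is given, and the difference in log2(FPKM + 1), which also enters the counts and ranges, then depends on the added 1 and is not a measured fold.

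The first genes in developmental order set the fate of cells in the young anther, and 2 of these 5 were at least 2-fold higher in flowers than in each other organ. SPL (AT4G27330), also called NOZZLE, a nuclear factor needed for the sporogenous cells to form, was listed at 0 FPKM in roots and stood at 0.00431 in leaves, 5.98 in flowers and 0.0973 in siliques. Flowers were the organ with an appreciable SPL level. EMS1 (AT5G07280), the receptor kinase that specifies the tapetum, stood at 20.1 FPKM in flowers, against 9.30 in siliques, 2.58 in leaves and 0.234 in roots. Its intervals in flowers (5.97 to 34.2) and siliques (2.14 to 16.5) overlapped. The difference in EMS1 between these organs, 1.03, passed the 2-fold mark by little, and it was 0.77 after median-of-ratios scaling. The difference in SPL was 2.67.

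TPD1 (AT4G24972), the small secreted protein that EMS1 perceives, did not follow its receptor. It stood at 5.62 FPKM in flowers, against 4.68 in siliques, 24.3 in leaves and 0.225 in roots, so the leaf library was the highest. The difference in log2(FPKM + 1) was -1.94 for flowers minus leaves, 0.22 for flowers minus siliques (-0.01 after median-of-ratios scaling) and 2.43 for flowers minus roots. Its leaf interval of 0 to 52.9 covered the flower interval of 0 to 15.3. In leaves the ligand gene stood above the receptor gene, and in flowers below it.

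ROXY1 (AT3G02000) and ROXY2 (AT5G14070), paired glutaredoxins that act together in the early anther, had their highest values in roots. ROXY1 stood at 0.654 FPKM in flowers, against 0.714 in siliques, 0.733 in leaves and 1.98 in roots. ROXY2 stood at 1.42 FPKM in flowers, against 2.22 in siliques, 2.43 in leaves and 5.87 in roots. Flowers were the lowest organ for both, with differences of -0.85 and -1.51 for flowers minus roots, and all of their intervals reached 0. Their coding sequences are 77.3% identical over the aligned bases and share an identical run of 40 bases, and reads from such runs may have been split between them. ROXY1 also overlaps the annotated gene AT3G01990, and it is not given whether counting used strand.

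**Figure D2:**
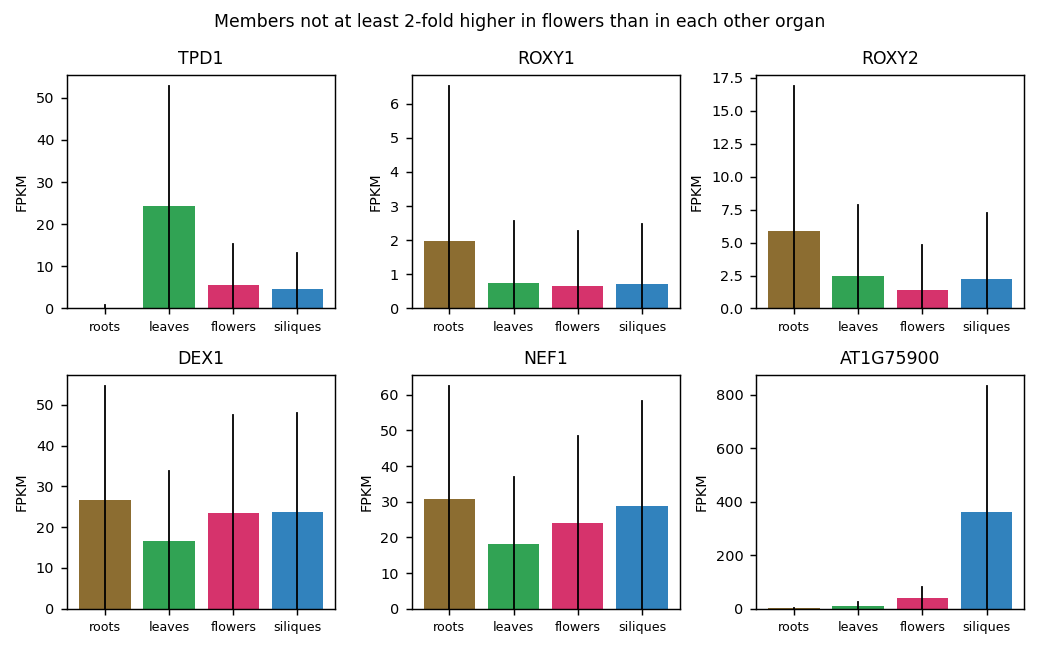
FPKM in each organ for the 6 compared members without a 2-fold lead of flowers over each other organ; bars are the listed values (1 library each) and lines the authors' intervals. TPD1 peaks in leaves at 24.3, ROXY1 and ROXY2 in roots at 1.98 and 5.87, and AT1G75900 in siliques at 360.2, while DEX1 and NEF1 differ little between organs.

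The transcription factors of the tapetum were found in flowers at low to moderate levels and hardly anywhere else. All 7 compared members were at least 2-fold higher in flowers than in each other organ, with differences between flowers and siliques from 1.48 to 4.85 and a median of 2.87. The 8 members ranged from 0.542 to 29.5 FPKM in flowers, and the highest value among them in any other organ was 0.367. AMS (AT2G16910), the bHLH factor in the middle of the cascade, led with 29.5 FPKM in flowers, against 0.0598 in siliques, 0.110 in leaves and 0.201 in roots. It shares its interval on chromosome 2 with the row of UBC23 (AT2G16920), which stood between 8.33 and 15.9 FPKM in all organs, and it is not given whether counting used strand. DYT1 (AT4G21330), the bHLH factor at the head of the cascade, was listed at 0 in leaves and stood at 0.00808 FPKM in roots, 0.542 in flowers and 0.0169 in siliques.

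The MYB factors TDF1 (AT3G28470) and MYB80 (AT5G56110), which act before and after AMS, stood at 1.91 and 2.43 FPKM in flowers. TDF1 was at 0.0450 in siliques, 0.0325 in leaves and 0.0622 in roots, and MYB80 at 0.0470 and 0.00606 in roots and leaves and listed at 0 in siliques. MS1 (AT5G22260), a PHD-finger protein that acts late in the tapetum, stood at 2.87 FPKM in flowers and was listed at 0 in the other 3 organs. These factors thus lay about an order of magnitude under AMS in the flower library.

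A trio of related bHLH factors had closely similar patterns. AT2G31220 stood at 10.8 FPKM in flowers, AT1G06170 at 8.73 and AT2G31210 at 6.63. Their values in the other organs were between 0.0123, for AT2G31210 in leaves, and 0.367, for AT2G31220 in siliques. Coding sequences of the trio are 67.3% to 74.9% identical, with no shared run longer than 21 bases, and AT2G31210 and AT2G31220 lie close together on chromosome 2.

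After meiosis the microspores lie in a callose wall, where the pattern of the outer wall is laid down, and are then set free. Among the 5 members with roles in this phase, 3 were at least 2-fold higher in flowers than in each other organ and 2 differed by less than 2-fold from each. MEE48 (AT4G14080), a family 17 glycosyl hydrolase, reached 84.3 FPKM in flowers, with 0.0165 in siliques, and was listed at 0 in roots and leaves. CALS5 (AT2G13680), the callose synthase of the microspore wall, stood at 16.1 FPKM in flowers, against 0.408 in siliques, 0.249 in leaves and 0.125 in roots. Its flower interval of 7.27 to 24.97 lay wholly above the silique interval of 0 to 1.13.

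QRT3 (AT4G20050), a polygalacturonase that breaks down the pectin holding the tetrad together, kept an appreciable level in siliques. It stood at 44.7 FPKM in flowers, against 14.6 in siliques, 0.483 in leaves and 1.08 in roots, the highest silique value among the 36 members with a flower lead. Its flower interval of 7.35 to 82.1 overlapped the silique interval of 3.28 to 25.9.

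DEX1 (AT3G09090) and NEF1 (AT5G13390), both needed for the exine to form, were broadly expressed. DEX1 stood at 23.4 FPKM in flowers, against 23.8 in siliques, 16.5 in leaves and 26.8 in roots. NEF1 stood at 23.9 FPKM in flowers, against 28.8 in siliques, 18.2 in leaves and 30.9 in roots. Neither differed 2-fold between flowers and any other organ, with differences from -0.35 to 0.47, and with 1 library each it is not shown that the organs are alike. Both share an interval with another row, AT3G09085 (8.99 to 20.2 FPKM) and AT5G13400 (1.38 to 54.7 FPKM).

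Genes of sporopollenin synthesis were near 0 outside flowers. All 6 members were at least 2-fold higher in flowers than in each other organ, with 13.2 to 68.1 FPKM in flowers and at most 0.322 elsewhere. Between flowers and siliques their differences ran from 3.80 to 6.11, with a median of 5.15. The pathway starts with ACOS5 (AT1G62940), which activates fatty acids. ACOS5 stood at 68.1 FPKM in flowers (interval 17.0 to 119.2) and 0.322 in roots and was listed at 0 in leaves and siliques. It was the highest of the 6.

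The fatty acid hydroxylases that work beside it were lower. CYP703A2 (AT1G01280) reached 13.2 FPKM in flowers, with 0.0191 in siliques, and was listed at 0 in roots and leaves. CYP704B1 (AT1G69500) stood at 33.1 FPKM in flowers, at 0.00349 in leaves and 0.00340 in siliques, and was listed at 0 in roots. LAP5 (AT4G34850), a polyketide synthase that extends the activated acids, stood at 40.4 FPKM in flowers and between 0.0516 and 0.161 in the other organs. LAP5 shares its interval with A/N-InvB (AT4G34860), an invertase gene with 4.91 to 23.7 FPKM.

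MS2 (AT3G11980), a fatty acyl reductase, stood at 52.4 FPKM in flowers, 0.120 in siliques, 0.00270 in leaves and 0.235 in roots. ABCG26 (AT3G13220), the transporter that carries wall precursors out of the tapetum, stood at 18.9 FPKM in flowers, 0.00267 in roots and 0.00826 in siliques and was listed at 0 in leaves. ACOS5 and ABCG26 are the members of this step whose flower interval lay wholly above those of the other 3 organs. For ABCG26 that interval was 0.877 to 37.0. ABCG26 shares its place on the chromosome with the row of AT3G13210, which stood between 0.321 and 0.918 FPKM. The listed enzymes LAP6 and TKPR1 had no row of their own. The row that joins LAP6 with AT1G02040 and AT1G02060 stood at 60.4 FPKM in flowers, 5.93 in siliques, 7.16 in leaves and 11.4 in roots. The row that joins TKPR1 with AT4G35430 and AT4G35440 stood at 81.3 FPKM in flowers, 20.0 in siliques, 20.2 in leaves and 7.65 in roots. How much of either value belongs to the listed gene cannot be told apart from these rows.

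**Figure D3:**
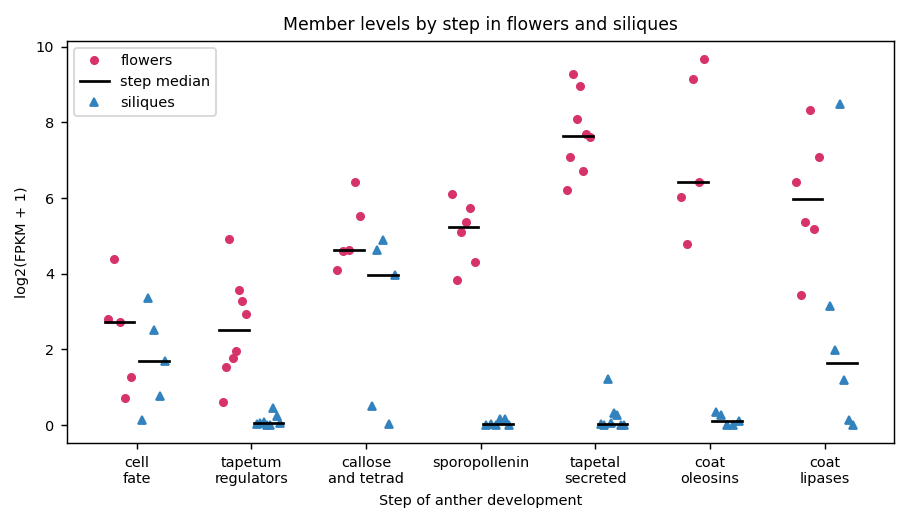
Levels of the 43 members in flowers (circles) and siliques (triangles), as log2(FPKM + 1), by step of anther development; black lines are step medians. Flower medians lie at 5.62 and 4.75 FPKM for cell fate genes and tapetum regulators, 23.9 and 36.8 for callose and tetrad and sporopollenin genes, and 199.9, 84.8 and 62.3 for tapetal secreted proteins, coat oleosins and coat lipases. The medians of the cell fate and the callose and tetrad genes are the values of TPD1 and NEF1.

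By step median, flower levels were lowest among the early regulators and highest among the proteins that the tapetum secretes or leaves on the grain. The median in flowers was 5.62 FPKM for the 5 cell fate genes, 4.75 for the 8 tapetum regulators, 23.9 for the 5 callose and tetrad genes and 36.8 for the 6 sporopollenin genes. It was 199.9 for the 8 secreted tapetal proteins, 84.8 for the 5 coat oleosins and 62.3 for the 6 coat lipases. Some of these medians rest on members that were not highest in flowers. The cell fate median is the value of TPD1, and the callose and tetrad median is that of NEF1. The lipase median lies between AT1G75900, at 40.1 FPKM in flowers and 360.2 in siliques, and AT1G75880, at 84.5 in flowers. In flowers the sporopollenin genes, at 13.2 to 68.1 FPKM, lay below all secreted tapetal genes, at 73.6 to 622.5, while the oleosins, at 26.4 to 814.6, overlapped both ranges. These are levels per length of transcript within 1 library, and the mix of floral stages in it is not given.

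The secreted tapetal proteins were near 0 outside flowers, apart from 1 gene. All 8 were at least 2-fold higher in flowers than in each other organ, with differences of 6.20 to 8.65 between flowers and siliques. ATA20 (AT3G15400), an anther protein, was the highest, with 622.5 FPKM in flowers and low levels of 1.34 in siliques, 1.84 in leaves and 2.40 in roots. AT1G66850, a small protein of the lipid-transfer superfamily, reached 498.4 FPKM in flowers, with 0.242 in siliques, and was listed at 0 in roots and leaves. ATA20 was thus the member of this step with the highest level in flowers and also with the highest in each other organ.

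Of the other 6, ATA27 (AT1G75940), a beta-glucosidase, reached 270.0 FPKM in flowers, with 0.0441 in siliques. AT1G20130, a GDSL-like lipase, stood at 206.1 FPKM in flowers and 0.0673 in roots. AT1G68875, annotated as uncharacterized, stood at 193.8 FPKM in flowers and was listed at 0 in all other organs. Its place in this step is that of the list, and neither tapetal origin nor secretion was tested. ATA7 (AT4G28395), a lipid-transfer type protein, stood at 134.2 FPKM in flowers and was listed at 0 in the other 3 organs. AT4G08670, a lipid-transfer protein with a membrane anchor, stood at 103.7 FPKM in flowers (interval 24.5 to 182.8) and 0.213 in siliques. AT5G07230, of the lipid-transfer superfamily, reached 73.6 FPKM in flowers, with 0.0129 in siliques. In the 8 genes of this step a value of 0 was listed 6 times in roots, 7 times in leaves and 3 times in siliques.

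The pollen coat oleosins lie side by side on chromosome 5. These proteins have an oleosin domain and a glycine-rich tail, and GRP17 is needed for pollen to hydrate promptly on the stigma. The 5 genes GRP14, GRP18, GRP17, GRP16 and GRP19 span 11.5 kb on the minus strand (chr5:2377703-2389249, TAIR10.1). All 5 were at least 2-fold higher in flowers than in each other organ, and the order of their flower levels was GRP19, GRP17, GRP16, GRP14 and GRP18. GRP19 (AT5G07550), the shortest of them, had the highest level of all members, with 814.6 FPKM in flowers, 0.0804 in siliques, 0.571 in leaves and 0.124 in roots. GRP17 (AT5G07530), the longest, stood at 566.4 FPKM in flowers, 0.00641 in siliques, 0.00435 in leaves and 0.0354 in roots. The silique and leaf values of GRP17 are of the size of a single fragment or a few.

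Their neighbours in the cluster had lower listed values in flowers. GRP16 (AT5G07540) stood at 84.8 FPKM in flowers (interval 37.6 to 132.0) and was listed at 0 in the other organs. GRP14 (AT5G07510) stood at 63.8 FPKM in flowers (interval 13.4 to 114.3), 0.269 in siliques, 0.00674 in leaves and 0.0391 in roots. GRP18 (AT5G07520) stood at 26.4 FPKM in flowers, 0.196 in siliques, 0.00999 in leaves and 0.00506 in roots. The authors' flower intervals of GRP19 (0 to 2001) and GRP17 (0 to 1769) include the values of all their neighbours, so the order within the cluster is that of the listed values alone. GRP20 (AT5G07560), the next gene past GRP19 and not on the list, showed the same pattern, with 126.7 FPKM in flowers and at most 0.131 elsewhere.

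Coding sequences of the 5 oleosins are 61.9% to 83.9% identical over the aligned bases, and the longest identical run, between GRP14 and GRP18, has 39 bases. Reads from such runs may have been split between them. The bases before the annotated starts of GRP17 and GRP19, the genes with the highest flower levels in the cluster, are shown from 5′ to 3′, with the longest run they share, of 20 bases, in capitals. The run is found in 3 of the 27444 upstream windows of 250 bases of protein-coding genes, those of GRP17, GRP16 and GRP19. It is thus not particular to the pair shown. GRP16, which lies between them, stood at 84.8 FPKM in flowers. With GRP16, GRP17 shares a longer run, of 27 bases, found in 2 of the windows. Each window has 250 bases and ends just before the annotated start (RefSeq TAIR10.1, minus strand).
GRP17: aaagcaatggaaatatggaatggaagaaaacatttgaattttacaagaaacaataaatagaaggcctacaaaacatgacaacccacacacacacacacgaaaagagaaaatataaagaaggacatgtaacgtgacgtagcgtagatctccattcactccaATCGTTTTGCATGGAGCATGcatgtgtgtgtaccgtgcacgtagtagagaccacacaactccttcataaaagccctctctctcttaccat
GRP19: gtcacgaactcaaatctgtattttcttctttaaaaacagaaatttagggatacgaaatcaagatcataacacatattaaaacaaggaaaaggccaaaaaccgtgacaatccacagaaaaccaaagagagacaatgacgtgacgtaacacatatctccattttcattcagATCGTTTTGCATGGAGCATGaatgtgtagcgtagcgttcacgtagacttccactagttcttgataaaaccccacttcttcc
These windows lie at chr5:2384526-2384775 and chr5:2389250-2389499. The run in capitals ends 70 bases before the start in GRP17 and 61 in GRP19. GRP14 and GRP18, the pair with the lowest flower levels in the cluster, share a run of 30 bases, found in 2 of the 27444 windows. A shared run is a description of the sequence, not a site.

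**Figure D4:**
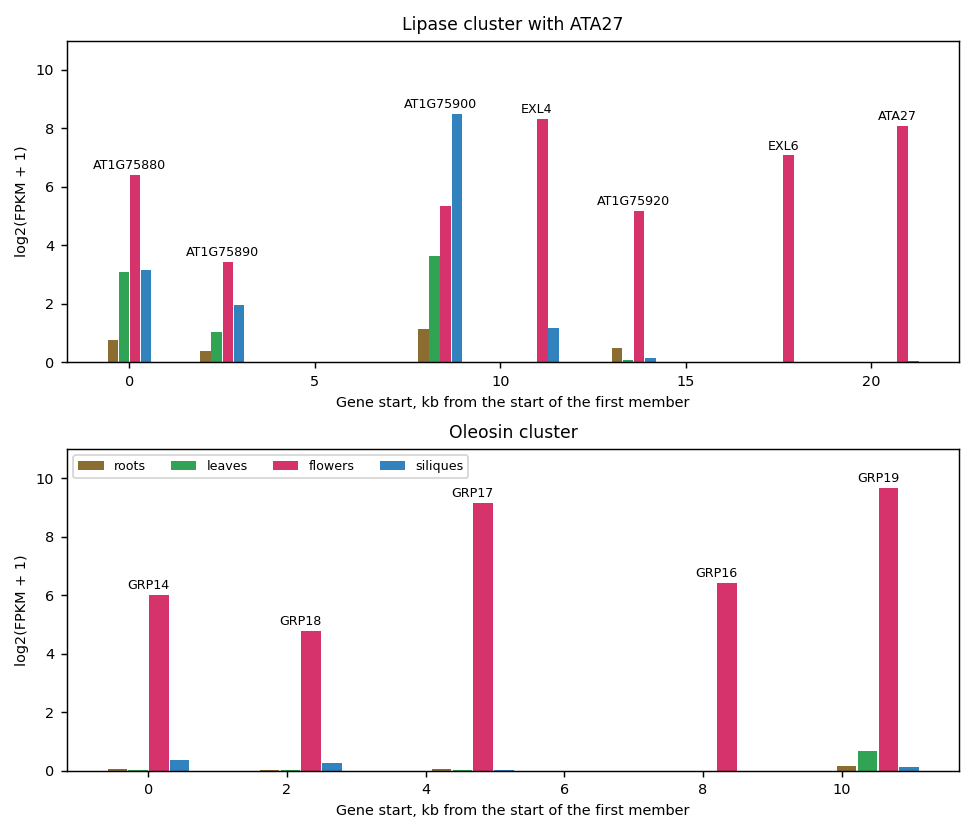
Levels of the members of the lipase cluster with ATA27 and of the oleosin cluster, as log2(FPKM + 1), in 4 organs (1 library each), placed by gene start in kb from the first member. Flowers lead in all genes but AT1G75900, whose silique bar is the highest of its cluster.

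The coat lipases form the other cluster, and 1 of them broke with its neighbours. The 6 GDSL lipase genes and ATA27 follow one another on the plus strand over 23.8 kb of chromosome 1 (chr1:28490443-28514284, TAIR10.1). Extracellular lipases are major proteins of the pollen coat. In flowers 5 of the 6 were at least 2-fold higher than in each other organ. EXL4 (AT1G75910) reached 317.6 FPKM in flowers, with 1.28 in siliques, and was listed at 0 in roots and leaves. EXL6 (AT1G75930) stood at 134.1 FPKM in flowers, 0.00518 in siliques, 0.00526 in leaves and 0.0103 in roots. AT1G75920, which lies between them, stood at 35.0 FPKM in flowers (interval 9.06 to 61.0), 0.101 in siliques, 0.0501 in leaves and 0.406 in roots.

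Genes at the start of the cluster were less restricted to flowers. AT1G75880 stood at 84.5 FPKM in flowers, against 7.87 in siliques, 7.55 in leaves and 0.684 in roots. AT1G75890 stood at 9.91 FPKM in flowers, against 2.92 in siliques, 1.03 in leaves and 0.301 in roots. Both had levels of over 1 FPKM in leaves and siliques, unlike AT1G75920 and EXL6. AT1G75890 shares its interval with the row of AT1G75891, which stood at 2.27 FPKM in flowers.

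AT1G75900, the third gene of the row, was highest in siliques. It stood at 40.1 FPKM in flowers, against 360.2 in siliques, 11.4 in leaves and 1.19 in roots. The difference of -3.14 for flowers minus siliques was the only one of at least 2-fold toward siliques among the 42 compared members, a direction met by 8.42% of all compared loci. Its silique interval of 0 to 832.2 covered the flower interval of 0 to 81.7. Only 179 bases lie between its annotated end and the start of EXL4, and EXL4 had a difference of 7.13 in the opposite direction.

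The coding sequences of AT1G75900 and EXL4 are 55.7% identical and share no run longer than 9 bases, while EXL4 and AT1G75920, at 82.9%, are the closest pair of the 6. The upstream bases of EXL4, EXL6 and AT1G75900 are printed to set 2 genes with at most 1.28 FPKM outside flowers beside the one that was highest in siliques. Capitals mark the longest run shared by EXL4 and EXL6, of 12 bases, found in 2 of the 27444 windows. The EXL4 window is cut at the annotated end of AT1G75900.
EXL4: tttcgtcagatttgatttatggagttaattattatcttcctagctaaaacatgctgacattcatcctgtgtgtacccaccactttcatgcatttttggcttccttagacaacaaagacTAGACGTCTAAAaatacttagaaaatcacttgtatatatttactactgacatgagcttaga
EXL6: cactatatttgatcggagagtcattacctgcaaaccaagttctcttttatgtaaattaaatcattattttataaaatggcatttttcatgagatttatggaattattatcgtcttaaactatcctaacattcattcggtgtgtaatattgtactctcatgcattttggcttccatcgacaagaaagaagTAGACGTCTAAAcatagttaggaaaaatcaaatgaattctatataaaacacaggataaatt
AT1G75900: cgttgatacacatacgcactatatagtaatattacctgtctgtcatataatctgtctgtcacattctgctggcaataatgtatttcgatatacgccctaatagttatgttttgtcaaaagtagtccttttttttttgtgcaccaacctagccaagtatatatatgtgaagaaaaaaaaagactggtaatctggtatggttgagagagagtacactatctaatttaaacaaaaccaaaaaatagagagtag
The windows lie at chr1:28501255-28501433, chr1:28507822-28508071 and chr1:28498571-28498820 (RefSeq TAIR10.1, plus strand). In both EXL4 and EXL6 the run ends 49 bases before the annotated start. The longest run that AT1G75900 shares with either has 8 bases. It shares a run of 13 bases, found in 87 of the 27444 windows, with AT1G75890, which was higher in flowers than in siliques. These runs too describe the sequence and are not sites. The window of AT1G75920 is covered by another annotated gene and was not compared.

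The E-box CANNTG, the core sequence bound by bHLH factors such as DYT1 and AMS, was searched in the 250 bases upstream of each member, also where they lie in another gene. It reads the same on both strands, so 1 search covers both. It was found in 24 of 43 windows (55.8%), against 55.3% of all 27444 windows, so its share among the members was near that of all genes. A match was held by 4 of the 5 cell fate genes, 2 of the 8 tapetum regulators, 4 of the 5 callose and tetrad genes and 3 of the 6 sporopollenin genes. It was held by 6 of the 8 secreted tapetal genes, 2 of the 5 oleosins and 3 of the 6 lipases. The form CACGTG, which is contained in CANNTG, was found upstream of CALS5, MS2 and ATA27, 3 of 43 (6.98%), against 6.49% of all windows. No match says only that these letters are not in this window.

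Loci were also ranked by the smallest of the 3 differences of flowers from another organ, and many members stood near the top. Among the 100 of 23477 compared loci with the largest lead, 19 were members, which is 45.2% of the 42, and 8 were among the first 10. GRP17, GRP19 and AT1G66850 held ranks 1, 2 and 3. These ranks are a description and no support for the list. The members were chosen with earlier results of these data known, and 30 of the 42 passed the filter only through their flower level. At the other end stood ROXY2, TPD1 and AT1G75900, at ranks 19225, 20321 and 22039.

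Many other genes of the anther and the pollen wall, not members, were also higher in flowers. Of 38 listed, 36 were compared. Against siliques 20 of the 36 were at least 2-fold higher in flowers and 2 were lower, against 13.5% and 8.42% of all compared loci, and the median difference was 1.33, against 0.19 over all loci. Against leaves 28 were higher and 0 lower (21.6% and 7.79% of all compared loci), with a median of 2.27 against 0.38. Against roots 22 were higher and 2 lower (23.8% and 16.5%), with a median of 2.42 against 0.05. TSM1 (AT1G67990), a tapetum-specific methyltransferase, had the largest difference between flowers and siliques, with 174.2 FPKM in flowers and 0.0210 in siliques. Next came AT5G62080 with 93.8 FPKM in flowers and a listed 0 in siliques, AT5G52160 with 96.9 and 0.237, and AT1G33430 with 85.9 and 0.328. CYP98A8 (AT1G74540) and SHT (AT2G19070), enzymes that make the phenolamides of the pollen coat, both had a difference of 4.88. On the other side, CEP1 (AT5G50260), a cysteine endopeptidase of dying tapetal cells, and CDM1 (AT1G68200), a zinc finger protein, were lower in flowers than in siliques, at -2.50 and -2.17. GPAT1 (AT1G06520) and CER3 (AT5G57800), genes of lipid and wax synthesis, had -0.80 and -0.69.

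**Figure D5:**
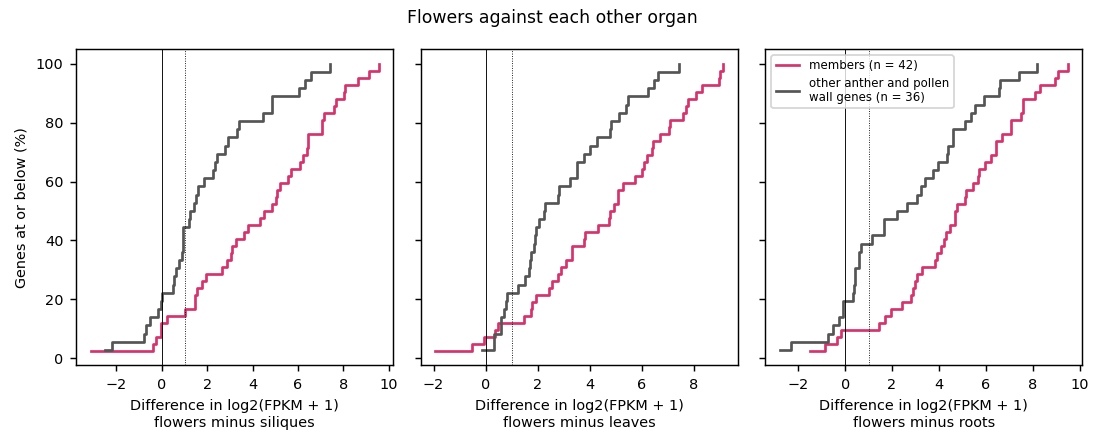
Cumulative share of genes (%) by difference in log2(FPKM + 1) between flowers and each other organ, for the 42 compared members and the 36 compared other anther and pollen wall genes; the solid line marks 0 and the dotted line 2-fold. Member medians lie at 4.68, 4.86 and 4.72, those of the other genes at 1.33, 2.27 and 2.42.

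Markers of other tissues place the libraries. All 9 compared markers of mature pollen were at least 2-fold higher in flowers than in siliques, and their summed level, with HAP2 included, was 1072 FPKM in flowers, 83.2 in siliques, 31.6 in leaves and 18.3 in roots. TUA1 (AT1G64740) was the highest of these markers in siliques, at 29.2 FPKM, with 64.3 in flowers, 28.8 in leaves and 15.7 in roots. It made up most of the leaf and root sums. In siliques VGD1 (AT2G47040), a pollen tube pectin methylesterase, and AT5G45880 still stood at 24.9 and 22.7 FPKM. The secreted tapetal proteins together reached 1.85 FPKM there and the oleosins 0.553. The seed coat gene BAN (AT1G61720), at 582.4 FPKM in siliques and 10.5 in flowers, and the 6 other seed and seed coat markers summed to 675.7 FPKM in siliques, 16.4 in flowers and 15.4 in roots. BAN made up most of the silique sum, and OLEO1 and CRA1 were highest in roots, at 7.27 and 6.15 FPKM, with 1.74 and 0.649 in siliques. The carpel and ovule markers summed to 363.8 FPKM in siliques and 145.0 in flowers. STK, SHP2 and SHP1 made up most of the silique sum, at 183.3, 86.9 and 77.2 FPKM, with 46.6, 27.4 and 19.7 in flowers. CRC (AT1G69180) went the other way, at 0.0332 FPKM in siliques and 28.0 in flowers. INO and SPT differed by less than 2-fold between flowers and siliques, and SPT was highest in roots. Root markers summed to 710.1 FPKM in roots and at most 51.6 in another organ. IRT1, FRO2 and CASP1 made up most of the root sum, at 373.9, 141.1 and 140.9 FPKM. SHR and SCR differed by less than 2-fold between roots and flowers. Leaf markers summed to 11399.5 FPKM in leaves, 9589.3 in siliques, 4557.9 in flowers and 29.2 in roots. Among them RBCS3B and CA1 were highest in siliques, at 5068 and 1481 FPKM, with 4099 and 1097 in leaves. The stamen and petal identity genes summed to 666.1 FPKM in flowers, 298.1 in siliques and at most 5.52 in the vegetative organs. SEP3, AP3 and AG made up most of the silique sum, at 185.9, 79.0 and 30.0 FPKM, with 178.2, 119.8 and 41.9 in flowers. PI, MYB21 and MYB24 stood at 2.89, 0.290 and 0.0824 FPKM in siliques, with 240.9, 68.9 and 16.4 in flowers. The part of these tissues in the differences of the members was not tested.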

How the data were processed

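RNA libraries of 4 organs, 1 each, were compared. DNase-treated total RNA went into TruSeq RNA v2 libraries for Illumina sequencing, per the labels' protocols. TopHat, Cufflinks and the build TAIR10 are named in the submitters' processing notes, and the sources used here give no versions or strand settings. The authors deposited FPKM values with interval ends and a status per locus and organ. Columns were assigned to organs by their initial.

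Members were rows whose name equals a listed code. The members, steps and gene lists were chosen with earlier results of these data known. Rows needed a usable status in all organs and an FPKM of at least 1 in 1 organ. Differences were taken on log2(FPKM + 1). With 1 library per organ no test was possible, and the first count of members in each comparison stands beside the share of all 23477 compared loci. The depth of the libraries is not given, and fragments per FPKM were estimated from loci whose upper interval end is 3 times the value, so precision at low values is approximate. The counting and scaling steps were tested on simulated data.

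The rule for printed values took the 2 highest members of each step in flowers, all members without a 2-fold flower lead, those without a row of their own and those in clusters or paralogous pairs. Values of the other members were added after they were seen. Of the other anther genes, the 6 largest and 4 smallest differences between flowers and siliques are named. Among the other anther genes and the markers, SHP1, SHR and TKPR2 had more than 1 row. For these the row with the highest sum over the organs was used. Positions of clusters and upstream sequences come from RefSeq TAIR10.1, in which 98.2% of 25887 single-gene rows overlap the same gene. Members without a symbol there are given by code. Amino acid sequences were not used here, and 1 upstream sequence is not reported here. Python 3.11.15, pandas 2.3.3, numpy 2.4.6 and Biopython 1.88 were used. Alternatives were other pseudocounts, no filter, median-of-ratios scaling, other folds and interval rules.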

Additional observations from a re-analysis of the deposited data

How the results depend on the processing

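The medians over the members kept their direction under the alternatives run, and of the single members TPD1 changed sign between flowers and siliques under median-of-ratios scaling (0.22 to -0.01). With 0.1 FPKM in place of 1 the median differences of flowers from siliques, leaves and roots were 7.44, 7.72 and 7.17, and with 5 FPKM 2.78, 2.88 and 2.91. The 4-fold mark left 30, 33 and 35 members higher in flowers, where separate intervals left 7, 9 and 9 at either fold. Median-of-ratios scaling moved the median of all loci by -0.20, -0.38 and -0.02 and left 35, 37 and 38 members. EMS1 then fell under 2-fold against siliques (0.77), as it did with 5 FPKM (0.81) together with TDF1, MYB80, MS1 and AT1G75890, which left 31. Without a filter DYT1 enters and the counts are 36, 37 and 38 of 43. Each member had 1 row, so summing the rows of a code could not change the counts. In 2 alternatives added after seeing the data, members that share an interval were left out (32, 33 and 34 of 36), and the lipase and oleosin genes (26, 26 and 27 of 31). The share of all loci was not counted under scaling, other pseudocounts, no filter or these omissions, so those member counts stand alone. No paired analysis was possible because each organ had 1 library, and no library could be left out. Depth limits the lowest values: a listed 0 does not show absence.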

Other observations

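TGA9 (AT1G08320) and TGA10 (AT5G06839), the bZIP factors known to work with ROXY1 and ROXY2 in the anther, were highest in roots, as both ROXY genes were. TGA9 stood at 43.5 FPKM in roots, with 5.44 in flowers, 0.789 in leaves and 0.189 in siliques. TGA10 stood at 26.1 FPKM in roots, with 4.39 in flowers, 2.18 in siliques and 0.129 in leaves. These are the 2 listed anther genes outside the members that were at least 2-fold lower in flowers than in roots, and they were noticed after the values were seen.

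AT1G75870, the gene before the lipase cluster, had 23.0 FPKM in flowers, 1.72 in siliques, 0.00622 in roots and a listed 0 in leaves.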
